A study of Mus musculus with 2 samples.

Results

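The genes described here are 10 components of the small RNA silencing pathway: Drosha, Dgcr8, Xpo5, Dicer1, Tarbp2, Ago1, Ago2, Ago3, Ago4 and Tnrc6a. They were taken by symbol from the deposited count table, in which each of them has 1 of the 25509 gene rows. The table holds 2 RNA-seq libraries of mouse soft-tissue sarcoma cells on the C57BL/6 background. In both libraries the cells descended from mesenchymal stem cells that lacked p53 and overexpressed Ccne1, grew as subcutaneous tumors, were seeded in the lungs of further recipient mice and were recovered from the lung foci. They then received a lentiviral short hairpin RNA, either against circCsnk1g3, a circular RNA made from exons of the casein kinase gene Csnk1g3 (shcircCsnk1g3, 1 library), or a control hairpin (shCTR, 1 library). The comparison asks whether the mRNAs that encode the silencing machinery differed between cells with and without the hairpin against circCsnk1g3.

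MicroRNAs are transcribed as long primary transcripts, from which the nuclear Microprocessor, made of the RNase III enzyme Drosha and its RNA-binding partner Dgcr8, cuts out a hairpin. Exportin 5, encoded by Xpo5, carries the hairpin to the cytoplasm, and Dicer with its cofactor Tarbp2 trims it to a short duplex. An Argonaute protein takes up 1 strand and pairs it with target mRNAs, and the Tnrc6 (GW182) proteins link Argonaute to the enzymes that shorten poly(A) tails and remove caps. Transcribed short hairpin RNAs, as used in both libraries, enter the same pathway at the export step, so that the cells of both groups carried an added substrate of these proteins.

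The libraries held 38792143 counts (shcircCsnk1g3) and 42709996 counts (shCTR). A log2 ratio was computed for genes with at least 10 counts in either library, called the genes tested. Where a pair of values is given without further words, the shcircCsnk1g3 library comes first and the shCTR library second. Levels are given as CPM, counts scaled to library size with the trimmed mean of M values (TMM). With 1 library per group there was no replicate and no test between conditions, and the range after each log2 ratio is a 95% exact (Clopper-Pearson) interval that covers counting error only and compares the libraries, not the conditions. Csnk1g3 had 2159 and 2411 counts, which stand for the linear transcript, because a circular RNA has no poly(A) tail and was not measured. Ccne1 had 893 and 963 counts and Trp53 3841 and 4334 counts, and a gene-level count does not check the deletion of Trp53. Of 10 mesenchymal marker genes, 9 were among the genes tested, with a median log2 ratio of -0.22, an interval above 0 for 2 (Col1a2 at 0.23 and Col3a1 at 0.37) and below 0 for 6 (the lowest Ly6a at -0.69), and Thy1 at 0 and 1 counts. Markers of other cells were sparse: the 10 leukocyte markers summed to 2.30 and 3.86 CPM with 6 at 0 in both, of which Cd68 held 87 of 90 and 155 of 163 counts and Ptprc 1 and 0, the 6 endothelial markers to 0.485 and 0.758 CPM with 1 at 0 in both, and the 7 lung epithelial markers to 2.37 and 1.23 CPM with 5 at 0 in both. The lung epithelial sums were nearly all Krt8, a keratin, with 92 of 93 and 46 of 52 counts, and Cdh1 had 1 and 6 counts. The part of these marker differences in the ratios below was not tested, and in bulk RNA a smaller number of cells of a type and less RNA per cell cannot be told apart.

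The small RNA genes were well above the detection limit and differed little between the libraries, except Ago4, which had 0 counts in both. Between 2753 counts (Ago3) and 22320 counts (Ago2) stood behind each of the 9 ratios, when both libraries are summed. The ratios of the shcircCsnk1g3 library over the shCTR library ran from -0.17 for Ago3 to 0.23 for Dicer1 on the log2 scale, with 7 genes higher and 2 lower in the shcircCsnk1g3 library. No member reached a 2-fold difference, which 2.13% of the 12941 genes tested reached upwards and 2.55% downwards. A 1.5-fold difference, reached by 5.39% upwards and 6.31% downwards, and a 1.2-fold difference, reached by 15.7% and 16.4%, were not met by any member either. Among the 5949 genes with at least as many summed counts as Ago3, the member with the fewest, a 1.2-fold difference was less common, at 6.35% upwards and 9.41% downwards.

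**Figure D1:**
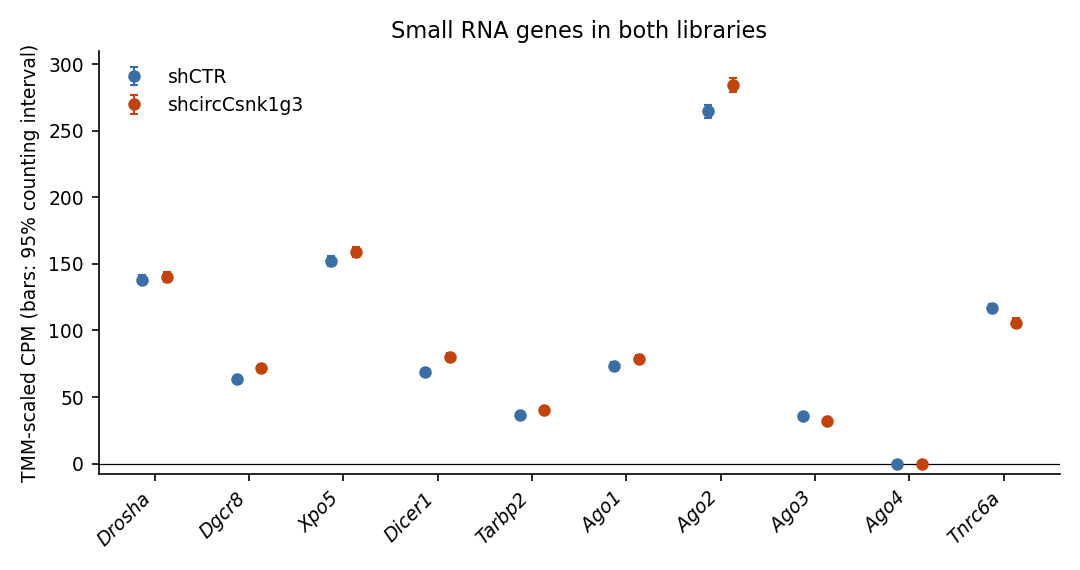
Level of each gene (y axis, TMM-scaled CPM on a linear axis) in the shCTR library (blue) and the shcircCsnk1g3 library (orange), with 95% exact Poisson counting intervals that are mostly shorter than the symbol. Ago2 is highest, at 265 CPM with shCTR and 284 CPM with shcircCsnk1g3, Ago4 is at 0 in both, and the 2 libraries lie close together for every gene.

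The counting interval lay above 0 for 6 of the 9 genes (Dgcr8, Xpo5, Dicer1, Tarbp2, Ago1 and Ago2) and below 0 for 2 (Ago3 and Tnrc6a). Among all genes tested, the interval lay above 0 for 26.9% and below 0 for 28.2%, or 3476 and 3651 genes, and under total counts without TMM factors 4117 and 3067 genes. Since a deeper count gives a narrower interval, the same shares were taken over the 5949 deeply counted genes, where they were 31.5% and 37.0%. The median log2 ratio of the 9 genes was 0.10, compared with 0.00 over all genes tested and -0.01 over the deeply counted genes. Their median absolute log2 ratio was 0.13, compared with 0.16 over all genes tested and 0.11 over the deeply counted genes. The lower and upper quartiles of the log2 ratio over the deeply counted genes were -0.12 and 0.10. Dgcr8 (0.17), Dicer1 (0.23) and Tarbp2 (0.13) lay above this range, and Ago3 (-0.17) and Tnrc6a (-0.14) below it. Ago1 and Ago2, both at 0.10, lay at its upper edge, and Drosha (0.02) and Xpo5 (0.06) inside it. The median size was thus near that of genes of like depth, while most of the 9 genes lay at or beyond these quartiles. Whether the higher count of intervals above 0 exceeds the variation between cultures could not be tested with 1 library per group.

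**Figure D2:**
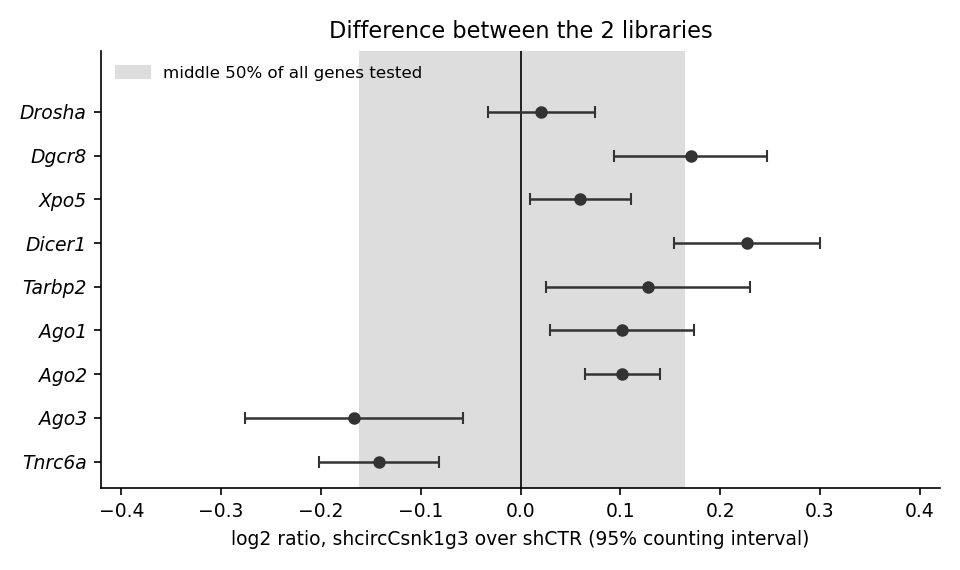
Log2 ratio of the shcircCsnk1g3 library over the shCTR library (x axis) for the 9 small RNA genes with counts, with 95% counting intervals. The grey band spans the middle 50% of all 12941 genes tested, from -0.16 to 0.16; Dicer1, at 0.23, and Dgcr8, at 0.17, are the points to its right and Ago3, at -0.17, the one to its left.

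The Microprocessor genes were both abundant. Drosha (chromosome 15, 12824815 to 12935291, plus strand, GRCm38) had 5491 counts with shcircCsnk1g3 and 5831 counts with shCTR, or 140 and 138 CPM. Its log2 ratio was 0.02 (-0.03 to 0.07), the smallest of the 9 genes, and 92.4% of all genes tested had a larger absolute ratio. Dgcr8 (chromosome 16, 18253948 to 18289246, minus strand) had 2807 and 2687 counts, or 71.6 and 63.6 CPM. Its log2 ratio was 0.17 (0.09 to 0.25). A larger absolute ratio was found for 48.2% of all genes tested and 41.0% of those with at least 200 summed counts. The Dgcr8 ratio was higher than that of Drosha by more than counting error, and the 2 genes summed gave a log2 ratio of 0.07 (0.03 to 0.11).

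Dgcr8 is itself the host of a microRNA hairpin, a structure that the Microprocessor is known to cut out of the Dgcr8 transcript. The 79 bases of Mir1306 (chromosome 16, 18284239 to 18284317, minus strand) lie inside an exon of 4 annotated Dgcr8 transcripts and inside the coding sequence of 2 of them. Its mature products are shown because they are cut from the mRNA that the Dgcr8 count measures, with the seed, bases 2 to 8 from the 5′ end, in capitals (RefSeq, GRCm38.p6).
miR-1306-5p: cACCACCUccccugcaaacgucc
miR-1306-3p: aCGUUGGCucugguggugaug
These products were not measured, since mature microRNAs carry no poly(A) tail. A further 825 exon bases of Dgcr8 (10.7% of the total) are shared with Trmt2a, a tRNA methyltransferase gene on the opposite strand, and whether the counting used strand is not given in the sources used here. On the same strand, 327 exon bases (4.25%) are shared with the protein-coding gene Gm49776, which had no row among those analysed here. Stretches of 75 bases that occurred in another annotated gene made up 12.9% of those of Dgcr8 transcripts. Trmt2a had 1936 and 2115 counts and a log2 ratio of -0.02 (-0.11 to 0.07). The part of reads from shared bases in the Dgcr8 ratio was not tested.

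For nuclear export, Xpo5 (chromosome 17, 46202782 to 46243598, plus strand) had 6226 counts with shcircCsnk1g3 and 6436 counts with shCTR, or 159 and 152 CPM. The log2 ratio was 0.06 (0.01 to 0.11), with an interval that lay just above 0 and that held 0 after a correction for GC content and length. None of the 75-base stretches of Xpo5 transcripts occurred in another annotated gene, and the same held for Drosha. The read length is not given in the sources used here, and at 50 bases 33 stretches of Drosha (0.547%) and 0 of Xpo5 occurred in another gene.

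Of the dicing genes, Dicer1 had the highest ratio of the whole set. Dicer1 (chromosome 12, 104687742 to 104751952, minus strand), the RNase III enzyme of the cytoplasm, had 3142 counts with shcircCsnk1g3 and 2893 counts with shCTR, and was thus higher in raw counts in the smaller of the 2 libraries. Its level was 80.1 CPM compared with 68.5 CPM, a 1.17-fold difference with a log2 ratio of 0.23 (0.15 to 0.30). Of all genes tested, 37.4% had a larger absolute ratio, and of those with at least 200 summed counts 29.3% did. Tarbp2 (chromosome 15, 102518192 to 102523676, plus strand), which holds the RNA hairpin beside Dicer, had 1567 and 1545 counts, or 40.0 and 36.6 CPM. Its log2 ratio of 0.13 (0.03 to 0.23) differed from that of Dicer1 by less than counting error. Dicer1 and Tarbp2 summed gave 0.19 (0.13 to 0.25). Of the 75-base stretches of Tarbp2 transcripts, 11.7% occurred in another annotated gene, each of them in the pseudogene Gm18584, which had no row among those analysed here.

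The Argonaute genes were not alike in level or in the direction of their ratio. Ago2 (chromosome 15, 73095844 to 73184935, minus strand), which encodes the Argonaute that cuts well-paired targets, had 11139 counts with shcircCsnk1g3 and 11181 counts with shCTR, or 284 and 265 CPM, with a log2 ratio of 0.10 (0.06 to 0.14). Ago1 (chromosome 4, 126435012 to 126468583, minus strand) had 3094 and 3106 counts, or 78.9 and 73.5 CPM, and a log2 ratio of 0.10 (0.03 to 0.17). Ago1 and Ago2 therefore had ratios equal to 2 decimals at very different levels. Ago3 (chromosome 4, 126331704 to 126429556, minus strand) had 1246 counts with shcircCsnk1g3 and 1507 counts with shCTR, or 31.8 and 35.7 CPM. Its log2 ratio was -0.17 (-0.28 to -0.06), the lowest of the 9 genes, and 49.1% of all genes tested had a larger absolute ratio. The difference between the Ago3 ratio and that of Ago1 was 0.27 (0.14 to 0.40), and the difference from Ago2 was 0.27 (0.15 to 0.38), both larger than counting error.

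Ago4 (chromosome 4, 126489541 to 126533472, minus strand) was listed at 0 counts in both libraries. A count of 0 allows up to 3 counts, or 0.0765 and 0.071 CPM, and no ratio was computed. The 2-sided 95% Poisson interval, as drawn for every gene in the plot of levels, reached 0.094 and 0.087 CPM. None of the 75-base stretches of its transcripts occurred in another annotated gene, and at 50 bases 20 stretches (0.29%) did. Ago3, Ago1 and Ago4 stand in a row on the minus strand of chromosome 4, with 5455 bases between Ago3 and Ago1 and 20957 bases between Ago1 and Ago4. The genes of this cluster were thus counted at very unequal levels, and the next gene beyond Ago4, the replication checkpoint gene Clspn, had 3662 and 3612 counts.

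The coding sequences of the 4 Argonaute genes were 71.6% (Ago2 and Ago3) to 75.5% (Ago1 and Ago2) identical in pairwise comparison. The window in which they are most alike is shown because it is where reads are hardest to assign to 1 paralog. It lies in coding exon 12 of each gene, and capitals mark the bases that differ from Ago2 (GRCm38, transcript strand, read 5′ to 3′).
Ago1, chr4:126448843-126448902: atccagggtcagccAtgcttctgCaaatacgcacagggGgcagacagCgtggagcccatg
Ago2, chr15:73121140-73121199: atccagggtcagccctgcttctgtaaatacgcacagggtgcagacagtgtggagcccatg
Ago3, chr4:126363722-126363781: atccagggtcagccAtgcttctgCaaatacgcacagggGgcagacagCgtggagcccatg
Ago4, chr4:126510027-126510086: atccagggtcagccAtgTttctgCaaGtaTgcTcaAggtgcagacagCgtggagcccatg
In this window 51 of 60 positions were the same in all 4 genes, and Ago1 and Ago3 did not differ at all. Over the whole transcripts, 96 stretches of 75 bases were shared between Ago1 and Ago3, which is 1.17% of those of Ago1 and 0.58% of those of Ago3. The bulk of either transcript was thus distinct at that length. Ago2 shares 219 exon bases (1.56%) with Chrac1, a chromatin remodeling gene on the opposite strand with 1252 and 1363 counts.

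The 4 Argonaute genes summed to 15479 counts with shcircCsnk1g3 and 15794 counts with shCTR, a log2 ratio of 0.08 (0.05 to 0.11). Ago2 held 72.0% of these counts (71.2 to 72.7) with shcircCsnk1g3 and 70.8% (70.1 to 71.5) with shCTR. Ago1 held 20.0% (19.4 to 20.6) and 19.7% (19.05 to 20.3). Ago3 held 8.05% (7.63 to 8.49) and 9.54% (9.09 to 10.01), and these Clopper-Pearson intervals did not overlap. Among the 5949 deeply counted genes, the interval of the log2 ratio lay above 0 for 31.5% and below 0 for 37.0%, so that differences beyond counting error were common. Ago4 held 0 of the 15479 and 0 of the 15794 counts. Since the genes differ in length, the share was also taken of CPM per kilobase of annotated exons, where Ago2 held 63.5% and 62.7%, Ago1 30.5% and 30.1%, and Ago3 6.02% and 7.16%. On both scales the order of the family was Ago2, Ago1, Ago3 and Ago4 in each library.

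**Figure D3:**
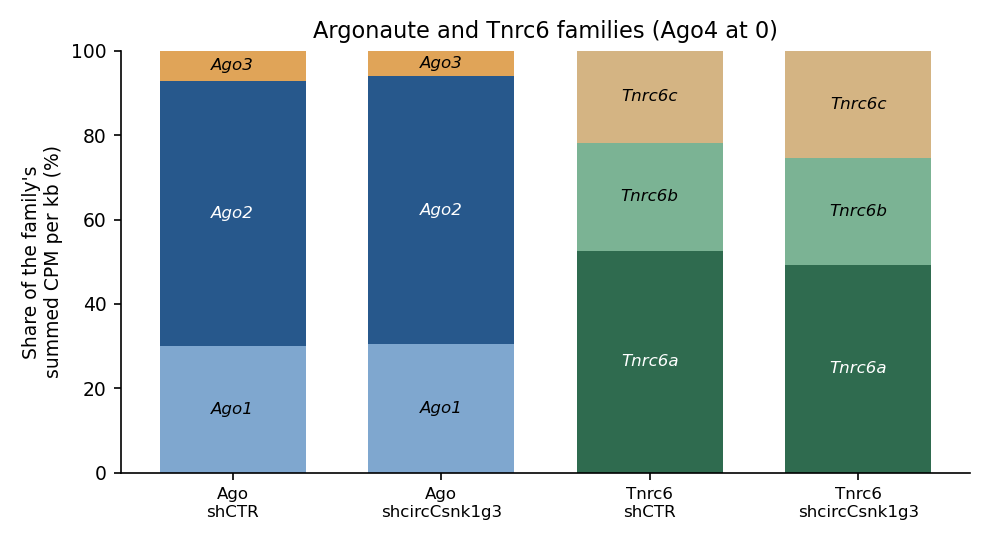
Stacked bars of the share of each family's summed CPM per kilobase (y axis, percent) held by each Argonaute gene and each Tnrc6 gene in the shCTR and the shcircCsnk1g3 library. Ago2 takes 62.7% (shCTR) and 63.5% (shcircCsnk1g3) of the Argonaute bar and Tnrc6a 52.5% (shCTR) and 49.2% (shcircCsnk1g3) of the Tnrc6 bar.

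Tnrc6a (chromosome 7, 123123885 to 123195296, plus strand), the scaffold that links Argonaute to deadenylation, had 4151 counts with shcircCsnk1g3 and 4934 counts with shCTR, or 106 and 117 CPM. Its log2 ratio was -0.14 (-0.20 to -0.08), which together with Ago3 made up the genes that were lower in the shcircCsnk1g3 library. Tnrc6a and Ago3 did not differ from each other in ratio beyond counting error, with a difference of -0.03 (-0.15 to 0.10) for Ago3 less Tnrc6a. The paralogs Tnrc6b and Tnrc6c had log2 ratios of -0.06 (-0.12 to -0.00) and 0.17 (0.08 to 0.26) and were named after their values were seen. The 3 Tnrc6 genes summed to 10311 and 11501 counts, a log2 ratio of -0.05 (-0.09 to -0.01). Tnrc6a held 40.3% (39.3 to 41.2) of the family's counts with shcircCsnk1g3 and 42.9% (41.99 to 43.8) with shCTR, and Tnrc6c held 20.98% (20.2 to 21.8) and 18.02% (17.3 to 18.7). The family was thus made up differently in the 2 libraries by more than counting error, as it was for Ago3 among the Argonautes. Differences beyond counting error were common at this depth, with an interval above 0 for 31.5% and below 0 for 37.0% of the 5949 deeply counted genes. Nothing particular to either family is read from them.

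The 9 genes form 36 pairs, and the widest gap in ratio, by construction that of the highest and the lowest gene, was between Dicer1 and Ago3, 0.39 (0.26 to 0.53) on the log2 scale, followed by Dicer1 and Tnrc6a with 0.37 (0.27 to 0.46). The interval of the difference left 0 for 21 of the 36 pairs. A difference between 2 genes within the same pair of libraries does not depend on how the libraries were scaled.

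**Figure D4:**
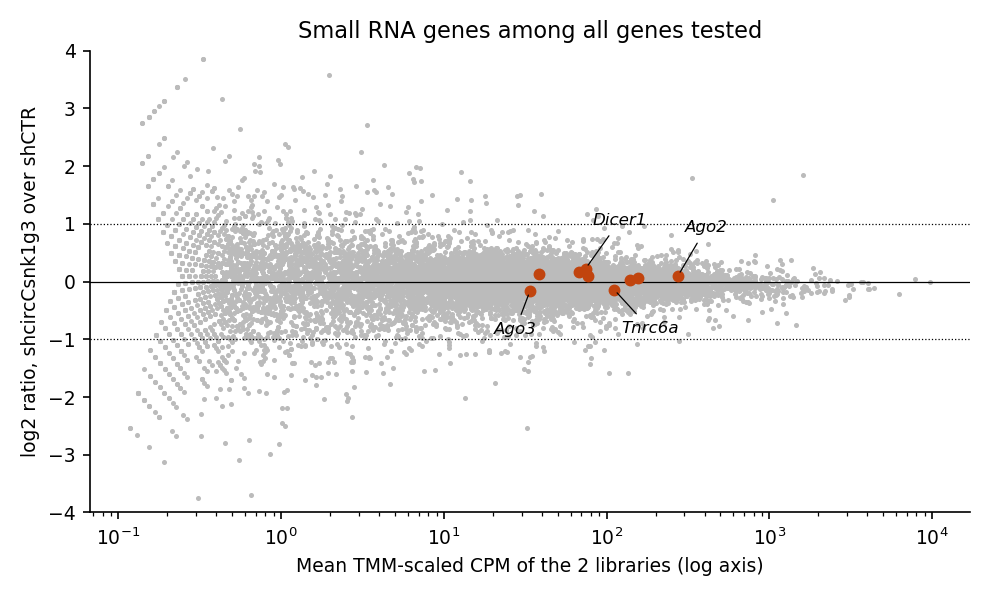
Log2 ratio of the shcircCsnk1g3 library over the shCTR library (y axis) against mean TMM-scaled CPM (x axis, log axis) for the genes tested (grey) and the 9 small RNA genes with counts (orange), with dotted lines at a 2-fold difference. The small RNA genes lie between -0.17 and 0.23, inside the spread of grey points at the same level, and 9 genes fall outside the plotted range.

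Levels of different genes were compared as CPM per kilobase of annotated exons. In the shcircCsnk1g3 library the order was Drosha (23.6), Xpo5 (23.2), Ago2 (20.2), Ago1 (9.72), Dgcr8 (9.30), Tarbp2 (8.79), Tnrc6a (8.33), Dicer1 (4.78), Ago3 (1.92) and Ago4 (0). The intervals of adjacent genes overlapped for Drosha and Xpo5, Ago1 and Dgcr8, Dgcr8 and Tarbp2, and Tarbp2 and Tnrc6a, whereas Ago1 lay clear of Tarbp2 and Tnrc6a, and Dgcr8 lay clear of Tnrc6a. In the shCTR library the values were 23.3 for Drosha, 22.2 for Xpo5, 18.9 for Ago2, 9.19 for Tnrc6a, 9.06 for Ago1, 8.27 for Dgcr8, 8.04 for Tarbp2, 4.09 for Dicer1 and 2.15 for Ago3. Here the intervals overlapped for Drosha and Xpo5, for Tnrc6a and Ago1, and for Dgcr8 and Tarbp2. Drosha, Xpo5 and Ago2 thus led in each library and Dicer1 and Ago3 stood low in each, and Tnrc6a held place 4 with shCTR and place 7 with shcircCsnk1g3. These places depended on the length used for each gene, and with the longest transcript in place of all exons 3 of the 9 genes (shcircCsnk1g3) and 5 (shCTR) kept their place.

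The partners of these proteins were followed in 4 further lists, and no gene with a counting interval off 0 and at least 100 summed counts reached 1.5-fold in any of them. The counts of intervals off 0 in these lists stand beside the shares over all genes tested, 26.9% above and 28.2% below 0, and over the deeply counted genes, 31.5% and 37.0%, and nothing particular to a list is read from them. Of 15 nuclear processing partners, 14 were among the genes tested, and the interval lay above 0 for 5 and below 0 for 3, with a median log2 ratio of 0.01. Their highest ratio was 0.22 (0.20 to 0.24) for Hnrnpa1, an RNA-binding protein known to bind the miR-18a hairpin, with 46687 and 43217 counts. The lowest was -0.14 (-0.19 to -0.09) for Erh, a small partner of the Microprocessor, with 5800 and 6880 counts. Of 10 export, dicing and precursor tailing partners, all tested, the interval lay above 0 for 4 and below 0 for 1, with a median of 0.03. The highest was Papd4, a poly(A) polymerase, with 1916 and 1851 counts and a ratio of 0.16 (0.06 to 0.25), and the lowest Zcchc6, a uridylyl transferase that tails hairpin precursors, with 2613 and 3036 counts and a ratio of -0.11 (-0.18 to -0.03).

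The list of Argonaute loading and regulation genes had the lowest median of the 4, -0.06, with the interval above 0 for 1 and below 0 for 8 of its 15 genes. P4ha1, the catalytic subunit of the prolyl hydroxylase that modifies collagen and also Ago2, had 6181 counts with shcircCsnk1g3 and 8394 counts with shCTR, a ratio of -0.33 (-0.38 to -0.29). Mov10, an RNA helicase found with Argonaute, had 2315 and 2157 counts and the highest ratio, 0.21 (0.12 to 0.29). Of the 27 silencing effectors, which include the CCR4-NOT and PAN2-PAN3 deadenylases and the decapping enzymes, the interval lay above 0 for 12 and below 0 for 8, with a median of 0.03. Dcp1b, a decapping cofactor, had 125 and 94 counts and a ratio of 0.51 (0.12 to 0.92). Cnot7, a catalytic deadenylase, had 2877 and 3659 counts and a ratio of -0.24 (-0.31 to -0.17). In each of the 4 lists, genes thus stood on both sides of 0.

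**Figure D5:**
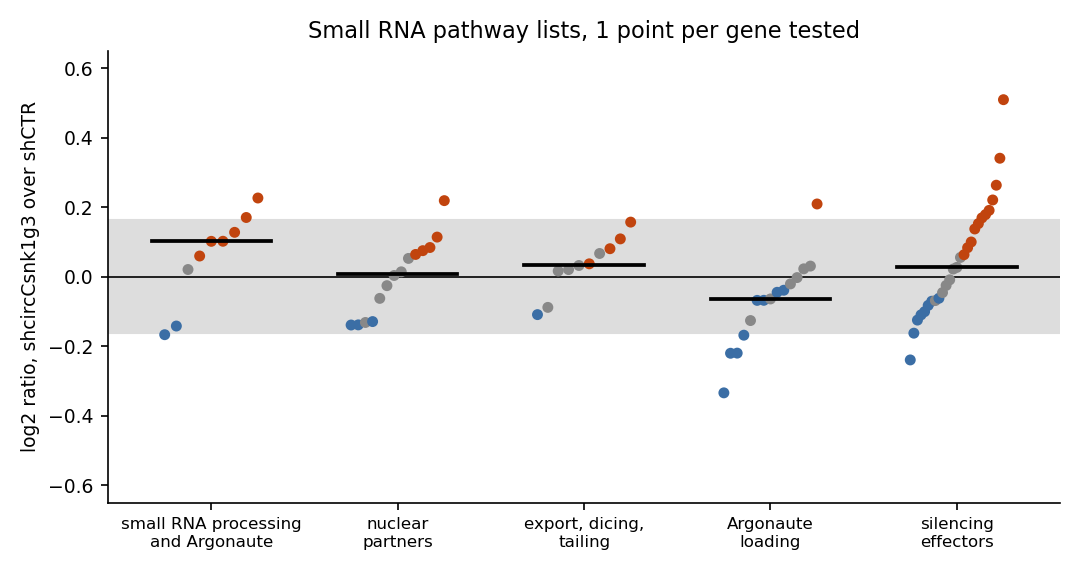
Log2 ratio of the shcircCsnk1g3 library over the shCTR library (y axis) for every gene tested of the small RNA genes and of the 4 partner lists, sorted within a list. Orange and blue points have a 95% counting interval above or below 0, grey points one that holds 0, black lines are list medians (0.10, 0.01, 0.03, -0.06 and 0.03 from left to right) and the grey band is the middle 50% of all genes tested.

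Apart from mRNAs that host a hairpin, such as Dgcr8, the substrates of the pathway were seen only where a primary microRNA transcript is polyadenylated and has a row of its own. Of 9 such rows, 3 reached 10 counts in a library, and no row for a microRNA hairpin was present among the genes analysed here. Mir17hg (chromosome 14, 115042879 to 115046727, plus strand), the host transcript of the miR-17 to miR-92a cluster, had 178 counts with shcircCsnk1g3 and 177 counts with shCTR. Its log2 ratio was 0.11 (-0.19 to 0.42), an interval wide enough to hold every member's ratio. It was the one of these 9 rows with 100 or more summed counts. Mature microRNAs of the cluster, cut by Drosha and then Dicer, are therefore shown for the arms of the cluster with the best known seeds (RefSeq, GRCm38.p6, seed in capitals).
miR-17-5p: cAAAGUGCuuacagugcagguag
miR-20a-5p: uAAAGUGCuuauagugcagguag
miR-18a-5p: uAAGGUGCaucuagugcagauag
miR-19a-3p: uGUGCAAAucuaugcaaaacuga
miR-19b-3p: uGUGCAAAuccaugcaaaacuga
miR-92a-3p: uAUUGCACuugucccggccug
The cluster yields 11 mature microRNAs with 9 different seeds, in which miR-17-5p shares its seed with miR-20a-5p and miR-19a-3p shares its seed with miR-19b-3p. None of these was measured, and a level of the primary transcript does not give the level of its products. Mir143hg had 25 and 32 counts and Mir155hg 6 and 14 counts, both with a wide interval that held 0, and they were named after their values were seen.

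The promoters of the members, in a window around each start, were examined for features that the choice of genes did not use. RefSeq promoters were found for 9 members, 10 promoters in all, and none for Ago2. The core of the interferon-stimulated response element, GAAA, any 2 bases and GAAA again, occurred on neither strand of any of the 10, whereas 3.44% of all 32851 promoters and 2.98% of the 12280 promoters of genes tested held it, which says only that these letters are not in these windows. The members' promoters held a median of 37.5 CpG dinucleotides, compared with 7 over all promoters and 20 over those of genes tested. The highest number, 54, was that of Ago4, the member with 0 counts, and the lowest, 11, that of Tnrc6a.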

How the data were processed

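Poly(A) RNA libraries were made with a stranded kit by the authors, who used bcl2fastq 2.20, STAR 2.6.1 with GRCm38, RSEM 1.2.28 and edgeR 3.30. The GENCODE release, the read length and the strand setting are not given in the sources used here. The deposited count table holds RSEM estimated counts rounded to whole numbers, in which reads that match several genes are divided between them. Its 92 spike-in rows were 0 and were left out. The second deposited table, a TMM-scaled signal for 11624 genes, equals the counts times 1 constant per library and served as an alternative.

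TMM factors (edgeR 4.0.16, R 4.3.3) were 1.01 for shcircCsnk1g3 and 0.989 for shCTR. Genes with at least 10 counts in either library were tested against a fold, and log2 ratios used a prior count of 2. Ratios and shares have 95% Clopper-Pearson intervals, levels of 1 gene in 1 library (CPM and CPM per kilobase) have 95% exact Poisson intervals, and differences between the ratios of 2 genes have a 95% exact conditional interval of the odds ratio of their counts. All cover counting error only, and PCR duplicates are not independent molecules. A count of 100, 1000 or 10000 in each library gives a half-width of 0.41, 0.13 or 0.04 on the log2 scale. GENCODE M21 (GRCm38) gave positions, exon lengths and transcripts for 25251 of 25509 genes, and Argonaute coding sequences were aligned with mafft 7.526. Sequence shared with other genes was searched at 2 assumed read lengths, 75 and 50 bases. Alternatives were DESeq2 1.42.0 size factors, total counts, the deposited table, prior counts of 0.5 and 10, no filter, 200 summed counts, a correction for GC content and length, and longest transcript lengths. The background of genes counted as deeply as Ago3 was chosen after seeing the data. The log2 ratio and its interval were tested on simulated counts with counting error only, and the other steps were not.

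The members and lists were chosen with earlier results of these data known. All 10 members were named. Of each other pathway list, genes past 1.5-fold with an interval off 0 and at least 100 summed counts were named, or failing that the highest and lowest ratio at that count, as were Csnk1g3, Trp53 and Ccne1.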

Additional observations from a re-analysis of the deposited data

How the results depend on the processing

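Over 8 alternatives, the 72 log2 ratios of the 9 members stayed within their own counting intervals, and the largest shift was 0.04. In 71 of the 72 the sign was the same, the exception being Drosha, which was at -0.01 after the correction for GC content and length. The same correction took the number of members with an interval above 0 from 6 to 5, with Xpo5 no longer among them. All 32 medians of the 4 partner lists kept their sign. Under total counts without TMM factors the medians were 0.04 in place of 0.01 for the nuclear processing partners, 0.07 in place of 0.03 for the export and dicing partners, -0.03 in place of -0.06 for the Argonaute loading genes, 0.06 in place of 0.03 for the silencing effectors and 0.13 in place of 0.10 for the members, beside a median of 0.03 over all genes tested. That scaling also turned the balance of intervals off 0 over all genes tested, from 3476 above and 3651 below 0 to 4117 and 3067, while the members stayed at 6 above and 2 below. The 2-fold counts over all genes moved more: 275 higher and 330 lower in the main comparison became 732 and 623 with no filter, 150 and 171 with a prior count of 10, 107 and 168 with the deposited table, and 60 and 79 among genes with at least 200 summed counts. With the longest transcript of each gene in place of all exons, 3 of 9 members (shcircCsnk1g3) and 5 (shCTR) kept their place in the per-length order, Ago2 held 61.4% and 60.6% of the Argonaute level, and Tnrc6a held 54.9% and 57.9% of the Tnrc6 level. No paired analysis was possible because each group had 1 library, and for the same reason no library could be left out. Depth limits the lists of germline and primary microRNA transcripts, where most rows had fewer than 10 counts, and spread between cultures was not measured.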

Other observations

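The germline branch of small RNA silencing, in which PIWI proteins bind piRNAs, had few counts. Of 10 germline Piwi pathway genes, 7 were at 0 counts in both libraries (Piwil1, Ddx4, Tdrd1, Mael, Mov10l1, Pld6 and Asz1), which allows up to 3 counts in each. Of all 25509 gene rows, 36.9% were at 0 in both libraries. The other 3 had few counts and were named after their values were seen. Piwil4 had 31 counts in the shcircCsnk1g3 library and 65 counts in the shCTR library, a log2 ratio of -0.92 (-1.63 to -0.32). Piwil2 had 17 and 23 counts and Henmt1, the methyltransferase that modifies piRNA ends, 24 and 27 counts, with intervals that held 0. Together the 10 genes summed to 1.84 CPM and 2.72 CPM, compared with 991 CPM and 949.8 CPM for the 9 small RNA genes with counts.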
